A study of Drosophila melanogaster with 5 samples.

Results

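The sites on the X chromosome of 3 DNA-binding proteins, Pita, ZIPIC and Zw5, were described in Drosophila melanogaster embryos from chromatin immunoprecipitation followed by sequencing. They were taken by position alone, as all peaks on X in 6 deposited peak lists, 1 against input chromatin and 1 against a preimmune precipitate for each protein. X held 901 of the 5386 peaks in the 6 lists, and the other 4 large arms (2L, 2R, 3L and 3R), pooled here as the reference, held 4138. On X there were 336 Pita peaks against input and 289 against preimmune, 77 and 74 ZIPIC peaks, and 80 and 45 Zw5 peaks. Both lists of a protein come from the same precipitate, so they are not independent measurements. The heterochromatic X sequence, which held 1 Pita peak against input, was not counted.

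All samples were wild-type Oregon-R embryos collected over 12 h at 25 °C and fixed for 15 min in 1.8% formaldehyde. Each precipitation used 50 µg of chromatin and a rabbit antibody, raised against residues 550 to 683 of Pita, 84 to 257 of ZIPIC or 98 to 302 of Zw5, and the input was 0.5 µg of chromatin. The control precipitate is labelled as preimmune rabbit serum, whereas the protocol text names rabbit IgG. It is called preimmune here, and which of these was used could not be settled. Each of the 5 libraries was sequenced for 51 single-read cycles, with 1 library per protein, so there is no replicate check on any value. By their peak names, Pita and Zw5 were precipitated from chromatin preparation A, while ZIPIC came from preparation B. For the controls the preparation is not stated in the labels, nor is the sex of the embryos. A 12 h collection of whole embryos mixes stages and cell types.

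Pita, ZIPIC and Zw5 carry clusters of C2H2 zinc fingers that read DNA, and they belong to the architectural or insulator proteins of flies, which help to separate neighbouring chromatin domains and to bring distant sites together. Pita and ZIPIC are known to recruit the cofactor CP190, and Zw5, encoded by dwg on X itself, was found as the protein that binds the scs boundary element beside a heat shock locus. The X of Drosophila is present as a pair in females and singly in males, where dosage compensation raises its transcription. A mixed population of embryos therefore holds fewer copies of X than of an autosome. The number of X copies in these libraries was not measured, and its part in the values below was not tested.

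The fold of a peak is the authors' enrichment at its summit over the background expected from the control. Fold and p together give the number of stacked fragments at the summit (the pileup) and that background. The most common background, which is the floor that MACS2 by default takes from the genome-wide average, was 9.18 fragments in the Pita list, 10.3 in the Zw5 list and 1.06 in the ZIPIC list, so the ZIPIC library was much shallower. Peak numbers and folds are therefore compared between X and the other arms within a protein and not between proteins. Unless stated otherwise, an input-list peak was used where at least 1 bp of it lay in a preimmune-list peak of the same protein (a peak against both controls), with its fold over input. This set held 284 Pita, 71 ZIPIC and 43 Zw5 peaks on X. Of the X input-list peaks, 84.5% of Pita, 92.2% of ZIPIC and 53.8% of Zw5 were so called, beside 74.9%, 84.9% and 49.8% over all sequences. Intervals are 95% intervals, exact Poisson for densities, Wilson for shares and order-statistic for medians. Where a count is 0, the limit printed is 3 counts of the total. They cover counting error only and treat peaks as independent. Peaks are not replicates, so no p-value is given and a difference is described by whether the intervals overlapped.

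The X chromosome, which made up 18.7% of the length of the 5 large arms, held different shares of the peaks of the 3 proteins. Its 284 Pita peaks were 21.3% of those on the large arms (interval 19.2 to 23.6), its 71 ZIPIC peaks 16.1% (12.9 to 19.8) and its 43 Zw5 peaks 12.6% (9.47 to 16.5). The length share thus lay below the Pita interval, inside the ZIPIC interval and above the Zw5 interval. Over all input-list Pita peaks the X share was 19.3% (17.5 to 21.2), an interval that enclosed the length share. Per megabase, X carried 13.1 Pita peaks (11.6 to 14.7) and the other arms 11.1 (10.4 to 11.8). For ZIPIC the densities were 3.27 per Mb (2.56 to 4.13) on X and 3.92 (3.53 to 4.34) elsewhere. Both of these pairs of intervals overlapped. Zw5 had 1.98 peaks per Mb on X (1.44 to 2.67) and 3.16 (2.81 to 3.54) on the other arms, where single arms ranged from 2.41 to 3.59, and these intervals did not overlap.

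The Zw5 difference lay mainly in the high peaks. Only 8 of the 43 Zw5 peaks on X had a fold of 10 or more, a height limit chosen after the values were seen. That was 18.6% (9.74 to 32.6), against 57.2% (51.5 to 62.7) on the other arms and 52.0% over all sequences, and the 4 other arms ranged from 50.7% to 65.3%. High Zw5 peaks occurred at 0.369 per Mb on X (0.159 to 0.727) and at 1.81 per Mb (1.55 to 2.1) elsewhere, and these intervals did not overlap. Zw5 peaks below 10-fold occurred at 1.61 per Mb on X (1.12 to 2.24) and at 1.35 (1.13 to 1.61) elsewhere, and these intervals overlapped. Every Zw5 peak of 10-fold or more on X and on the other arms was called against both controls, so the density of high peaks was the same over the whole input lists. Low peaks there occurred at 3.32 per Mb on X (2.6 to 4.18) and at 4.11 (3.72 to 4.54) elsewhere, with overlapping intervals. From 10-fold to below 20-fold X held 3 Zw5 peaks, or 0.138 per Mb (0.0285 to 0.404), and the other arms 59, or 0.624 (0.475 to 0.805). From 20-fold to below 30-fold the numbers were 3 and 92, or 0.138 (0.0285 to 0.404) and 0.973 per Mb (0.784 to 1.19), and in neither class did the intervals overlap. At 30-fold or more they did, with 2 peaks on X, or 0.0922 per Mb (0.0112 to 0.333), and 20 elsewhere, or 0.212 (0.129 to 0.327). With fold over preimmune in place of input, 7 of the 43 X peaks reached 10-fold, or 16.3% (8.12 to 30.0), against 51.2% (45.5 to 56.8).

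The strongest of the 8 high Zw5 peaks on X lay at X 17315805 to 17316529, where 408 fragments were stacked, 36.2-fold over input and 33.6-fold over preimmune, and it ranked 3rd of the Zw5 peaks on all large arms. It was followed at 30.4-fold by X 17199509 to 17200241 (pileup 342) and at 24.5-fold by X 19373662 to 19374673 (pileup 420). The next were X 17042082 to 17043091, at 23.4-fold and with a pileup of 266, and X 15217198 to 15217853, at 21.8-fold and with a pileup of 398. All 5 lay in the centromere-proximal section when X was divided into 3 equal sections. The sections held 2, 1 and 5 high peaks, or 0.277 (0.0335 to 1), 0.138 (0.0035 to 0.771) and 0.692 per Mb (0.225 to 1.61), and these intervals overlapped. The remaining 3 were X 3997980 to 3998594 at 15.1-fold, X 8145646 to 8146199 at 12.5-fold and X 3565473 to 3566214 at 11.8-fold. Only the peak at X 17042082 overlapped a site of another protein, a ZIPIC peak.

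**Figure D1:**
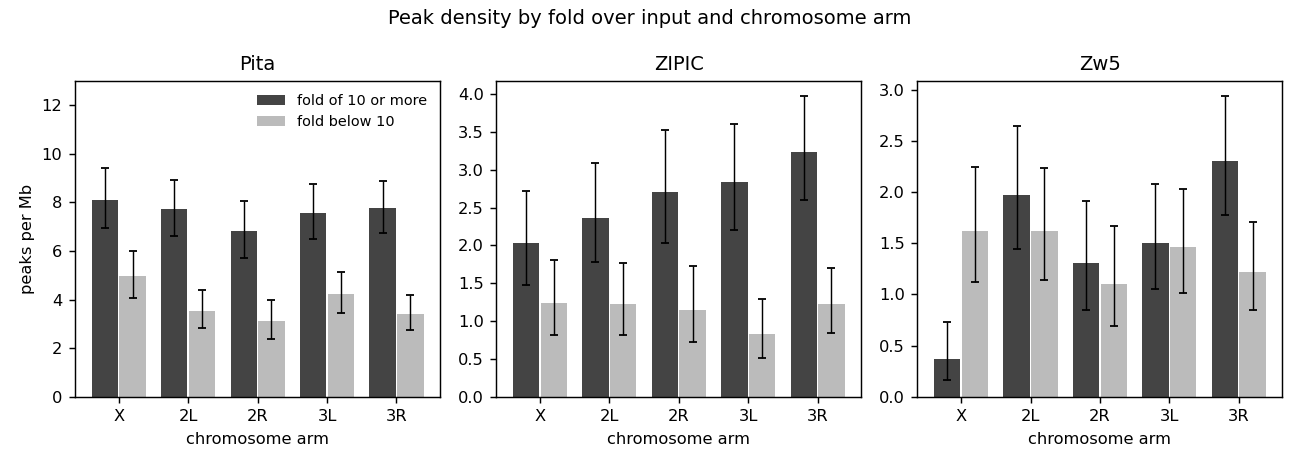
Peaks per Mb against both controls with a fold over input of 10 or more and below 10, for X and for each of the other large arms, with 95% exact Poisson intervals that cover counting error only. For Zw5, the high peaks stand at 0.369 per Mb on X and between 1.30 and 2.30 on the other arms. The low peaks stand at 1.61 on X and between 1.10 and 1.62 on the other arms.

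Zw5 peaks called against both controls were also lower and narrower on X. Their median fold over input was 5.58 (4.52 to 6.67), against 14.0 (10.9 to 17.6) on the other arms, and over preimmune it was 5.03 (4.26 to 5.92) against 10.4 (7.96 to 13.6). Neither pair of intervals overlapped. The median pileup at these peaks was 62 fragments on X (55 to 81) and 203 (152 to 265) elsewhere. The gap was much smaller over the whole input lists, where the median fold was 3.95 (3.63 to 4.48) and 4.86 (4.43 to 5.29), with overlapping intervals. The median pileup over these lists was 49.5 (46 to 55) and 64 (59 to 71), and its intervals did not overlap. The median width of Zw5 peaks against both controls was 379 bp on X (339 to 416) and 643 bp (575 to 689) elsewhere. A smaller width on X was not particular to Zw5. For Pita the medians were 567.5 bp on X (504 to 602) and 629 bp (610 to 645) elsewhere. For ZIPIC they were 283 bp (259 to 310) and 346 bp (334 to 359), and none of these 3 pairs of intervals overlapped.

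For Pita, whether a height class was separated between X and the other arms depended on the control. By fold over input, Pita peaks below 10-fold occurred at 4.98 per Mb on X (4.09 to 6.01) and at 3.59 (3.21 to 3.99) elsewhere, and the intervals did not overlap. Those of 10-fold or more occurred at 8.12 per Mb on X (6.96 to 9.41) and at 7.5 (6.96 to 8.07) elsewhere, with overlapping intervals. By fold over preimmune, low peaks occurred at 5.21 per Mb (4.29 to 6.27) and 4.51 (4.09 to 4.95), and high ones at 7.89 (6.75 to 9.16) and 6.58 (6.07 to 7.12), with overlapping intervals in both classes. Over the whole input lists the low densities were 7.38 on X and 7.35 elsewhere. The share of X Pita peaks with 10-fold or more was 62.0% (56.2 to 67.4), beside 67.7% (64.8 to 70.4) on the other arms and 65.4% over all sequences. The median Pita fold over input was 18.2 on X (14.0 to 21.4) and 19.8 (18 to 21.4) elsewhere. Over preimmune the order was the opposite, 16.7 on X (12.6 to 18.3) and 12.9 (11.9 to 14.0) elsewhere, with overlapping intervals over either control. The median Pita pileup was 209.5 fragments on X and 233 elsewhere. The total Pita density also rested on the preimmune call, since all input-list Pita peaks gave 15.5 per Mb on X (13.9 to 17.2) and 14.8 (14.1 to 15.6) elsewhere.

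Many of the highest Pita peaks had pileups near the top of their list. The highest pileup in the Pita input list was 436 fragments, which is 2 times the shortest interval of 218 bp, and 51 of the 284 X peaks (18%, 13.9 to 22.8) reached at least 90% of it, as did 15.6% (13.5 to 17.9) on the other arms. Folds near this pileup still differed with the background. For example, an X Pita peak with a pileup of 396 over an input background of 13.1 stood at 28.1-fold. The strongest Pita peak on X was at X 11588518 to 11589365, with a pileup of 434, 42.7-fold over input and 39.4-fold over preimmune. The next 4, at X 3999453 to 4000251, X 15990380 to 15991344, X 17781123 to 17782052 and X 18215250 to 18215983, had pileups between 427 and 432 and folds between 42.0 and 42.5. Their folds over preimmune ranged from 28.5 to 39.2. Of these 5 sites, the first also held ZIPIC and Zw5 and X 3999453 held Zw5, and the others were Pita alone.

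ZIPIC on X tended to lower folds, without a separation of the intervals. Of its 71 peaks, 44 had a fold of 10 or more, or 62.0% (50.3 to 72.4), against 71.7% (66.9 to 76.0) on the other arms and 69.5% over all sequences. High ZIPIC peaks occurred at 2.03 per Mb on X (1.47 to 2.72) and at 2.81 (2.49 to 3.17) elsewhere, and low ones at 1.25 and 1.11. The median ZIPIC fold over input was 12.9 on X (9.77 to 15.5) and 15.8 (14.5 to 17.2) elsewhere, with a median pileup of 28 against 37 fragments. The strongest ZIPIC site of X coincided with the strongest Pita site, at X 11588813 to 11589300, with a pileup of 74 and a fold of 36.4 over either control. It was followed by X 7795690 to 7796012 at 35.5-fold, X 17042147 to 17042671 at 32.5-fold, X 1243266 to 1243756 at 31.6-fold and X 19162738 to 19163186 at 31.1-fold. Each of these 5 overlapped a Zw5 peak. Among the 442 ZIPIC peaks on the large arms they ranked between 21 and 40.

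**Figure D2:**
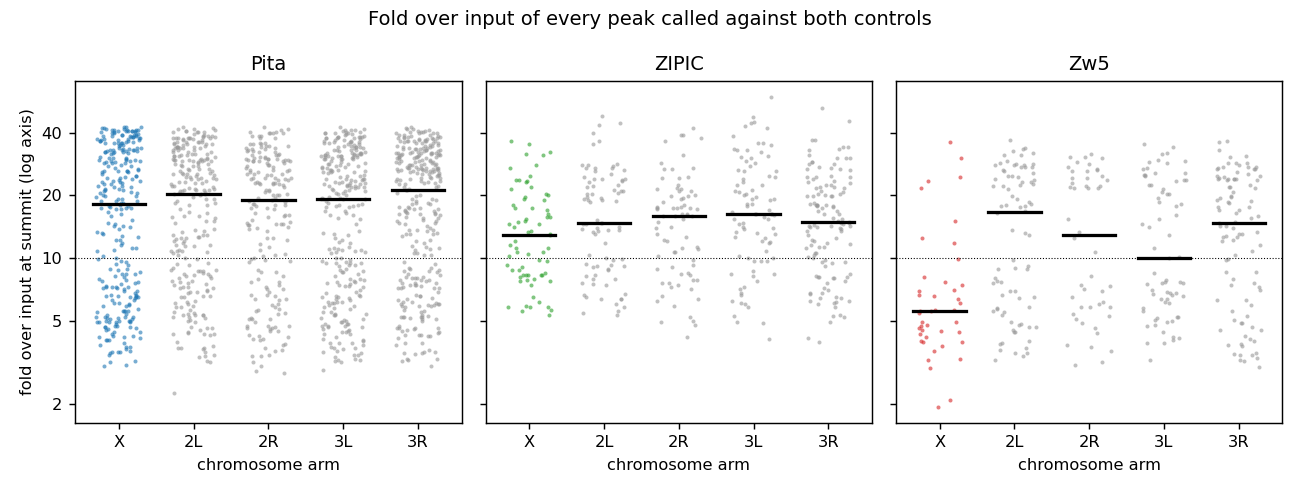
Fold over input (log axis) of each peak against both controls, on X and on each of the other large arms, with a line at the median of each arm and a dotted line at 10-fold. The Zw5 points of X gather below 10-fold, with 8 of 43 above it, while the X medians of Pita and ZIPIC are 18.2 and 12.9.

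At the lower end, the weakest X peaks called against both controls were a Pita peak at X 9903901 to 9904416, 3.05-fold over input with a pileup of 30, and a ZIPIC peak at X 552144 to 552300, 5.34-fold with a pileup of 10. The weakest Zw5 peak, X 21526593 to 21527039, was 1.92-fold over input and 4.09-fold over preimmune, and its input background of 24.5 fragments was above the floor. The strongest X peaks that were not called against preimmune were X 13716235 to 13716490 for Pita at 4.81-fold, X 16316201 to 16316352 for ZIPIC at 6.32-fold and X 9581817 to 9582151 for Zw5 at 4.96-fold. The ranges of called and uncalled X peaks therefore overlapped for all 3 proteins.

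Along X, Pita peaks were denser in the outer sections than in the middle one. The 3 equal sections of X, from the telomere at coordinate 1 toward the centromere, held 110, 71 and 103 Pita peaks, or 15.2 (12.5 to 18.3), 9.82 (7.67 to 12.4) and 14.3 (11.6 to 17.3) per Mb. The interval of the first section lay above that of the middle one, and that of the last section overlapped both. ZIPIC had 27, 20 and 24 peaks in these sections and Zw5 had 15, 13 and 15, without separated intervals. In the 21 full 1-Mb bins of X, Pita counts ran from 7 to 23 (median 12), ZIPIC counts from 1 to 8 (median 3) and Zw5 counts from 0 to 5 (median 2). The fullest bins, with 31 peaks of the 3 proteins together, were the first, with 21 Pita, 8 ZIPIC and 2 Zw5, and the one from 17 to 18 Mb, with 23 Pita, 3 ZIPIC and 5 Zw5. The emptiest, from 12 to 13 Mb, held 8 Pita peaks, 1 ZIPIC peak and no Zw5 peak.

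The variance of the 1-Mb counts divided by their mean, which is 1 for independent placement at 1 rate, was 1.77 for Pita on X and 1.80 on the other arms. For ZIPIC it was 1.29 and 1.50. For Zw5 it was 0.95 on X and 1.89 on the other arms, which singly ranged from 1.38 on 3L to 2.84 on 2L. The bin counts of Pita and ZIPIC on X had a Spearman rho of 0.51 and a Pearson r of 0.45 over the 21 bins, and those of Pita and Zw5 0.39 and 0.44. For ZIPIC and Zw5 the values were 0.11 and 0.017. Over the 91 bins of the other arms, Pita and ZIPIC gave 0.099 and 0.096, Pita and Zw5 0.16 and 0.13, and ZIPIC and Zw5 0.25 and 0.14. These are descriptions of bins along a chromosome, in which the proteins share some of the same regions.

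The densest 100-kb stretch of X ran from summit 17546674 to summit 17645927 and held 10 summits, 8 of Pita, 1 of ZIPIC and 1 of Zw5. Summits 230883 to 318765 and 13223824 to 13315285 each spanned 9, of which 6 were Pita and 3 ZIPIC. The longest stretches of X without a summit of any of the 3 proteins were 440 kb from 4979129 to 5418817, 395 kb from 12658854 to 13053609 and 383 kb from 4593561 to 4977019. Between the first and the last of these lie only 2110 bp, from summit 4977019 to summit 4979129. Longest gaps on the other arms ran from 310 kb on 3R to 825 kb on 3L.

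Zw5 sites on X stood far from each other. A neighbouring Zw5 summit within 5 kb was found for 2 of 43 X peaks, or 4.65% (1.28 to 15.5), against 93 of 299, or 31.1% (26.1 to 36.6), on the other arms and 27.5% over all sequences. The other 4 arms ranged from 16.9% to 39.0%. The median distance to the nearest Zw5 summit was 211 kb on X (157 to 340) and 27.6 kb (15.6 to 46.8) elsewhere. Relative to the mean spacing, which corrects for density, this was 0.419 on X and 0.0873 elsewhere. The only close pair on X, 1751 bp apart, was formed by X 3997980 to 3998594 at 15.1-fold and X 3999800 to 4000172 at 4.78-fold, and the second of these lies on the second strongest Pita peak of X. The next closest Zw5 summits were 33.3 kb apart. The other arms held 40 Zw5 clusters with steps of at most 5 kb, of up to 5 summits, and 38 of the 40 included a peak of 10-fold or more.

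Close Zw5 neighbours and height went together. On the other arms a neighbour within 5 kb was found for 42.1% (35 to 49.6) of peaks of 10-fold or more and for 16.4% (11 to 23.8) of lower peaks. On X the lower peaks had a neighbour in 1 of 35 cases (2.86%, 0.506 to 14.5) and the higher ones in 1 of 8 (12.5%, 2.24 to 47.1). Within each height class the intervals of X and of the other arms overlapped, and both X shares were the lower ones.

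For Pita and ZIPIC, the shares of X peaks with a close neighbour had intervals that overlapped those of the other arms. A Pita neighbour within 5 kb was found for 38 of 284 X peaks, or 13.4% (9.91 to 17.8), against 14.3% (12.3 to 16.6) on the other arms and 14.0% over all sequences. These 38 formed 18 clusters, 16 pairs and 2 runs of 3. For ZIPIC it was 10 of 71, or 14.1% (7.83 to 24.0), against 17.3% (13.7 to 21.4) and 15.6% over all sequences, in 5 pairs. The median distance to the nearest Pita summit was 23.7 kb on X and 24.1 kb elsewhere. For ZIPIC it was 89.8 kb (26.9 to 114) and 44.9 kb (34.8 to 50.8), and the wide X interval enclosed the other.

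**Figure D3:**
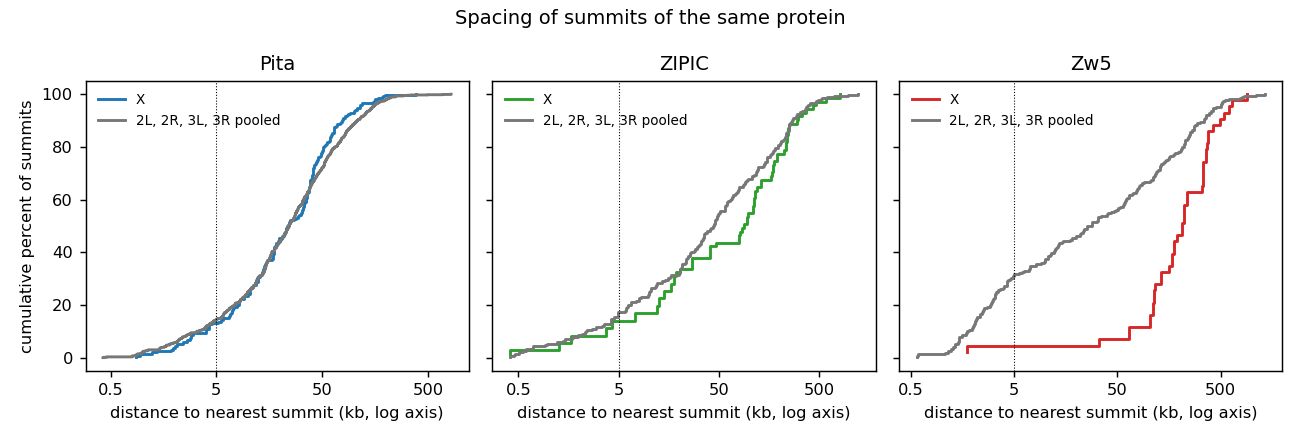
Cumulative percent of peaks against the distance to the nearest summit of the same protein (log axis, kb), on X and on the other large arms pooled. The Zw5 curve of X runs far to the right, with a median of 211 kb against 27.6 kb, while the Pita curves lie together at 23.7 and 24.1 kb.

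Merging overlapping peaks of the 3 proteins gave 357 regions on X, of which 38 (10.6%) held more than 1 protein, against 9.95% on the other arms. Pita alone made up 255 regions (71.4%, beside 62.6% over all sequences) and ZIPIC alone 49 (13.7%, beside 17.6%). Zw5 alone made up 15 regions, or 4.20% (2.56 to 6.82), against 11.7% (10.2 to 13.4) on the other arms and 9.82% over all sequences. Pita and Zw5 without ZIPIC shared 16 regions, or 4.48% (2.78 to 7.16), against 2.84% on the other arms and 3.11% over all sequences. Pita and ZIPIC shared 10 (2.80%, beside 2.46%), ZIPIC and Zw5 shared 9 (2.52%, beside 3.31%), and all 3 proteins shared 3 (0.840%, beside 1.05%).

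Most Zw5 peaks on X lay on a site of another protein. Of the 43, 19 overlapped a Pita peak, or 44.2% (30.4 to 58.9), against 20.4% (16.2 to 25.3) on the other arms and 24.3% over all sequences. A ZIPIC peak was overlapped by 12, or 27.9% (16.7 to 42.7), against 24.7% elsewhere and 25.4% over all sequences. Either protein was found at 28, or 65.1% (50.2 to 77.6), against 39.5% (34.1 to 45.1) and 43.4% over all sequences. The intervals for Pita and for either protein did not overlap those of the other arms. Over the whole input lists they did, with Pita at 52.5% of Zw5 peaks on X (41.7 to 63.1) and 42.9% (38.8 to 47) elsewhere, and either protein at 70% (59.2 to 78.9) and 60.2% (56.1 to 64.2).

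At like height the difference was smaller. Among Zw5 peaks below 10-fold, 27 of 35 on X (77.1%, 61 to 87.9) overlapped either protein, against 95 of 128 (74.2%, 66.0 to 81.0) elsewhere. The partner leaned toward Pita on X, with 19 of 35 (54.3%, 38.2 to 69.5) at Pita and 11 of 35 (31.4%, 18.6 to 48.0) at ZIPIC, against 35.9% (28.1 to 44.5) and 50.0% (41.5 to 58.5) elsewhere, although these intervals overlapped. Of the 8 high Zw5 peaks on X, 0 overlapped a Pita peak, which allows a share of up to 37.5%, and 1 overlapped a ZIPIC peak. On the other arms 8.77% and 5.85% did. The 15 Zw5 peaks that stood alone on X had a median fold of 7.67 (3.77 to 21.8), against 21.9 (19.6 to 23.7) for such peaks elsewhere, and 7 of them reached 10-fold. The 28 with a partner had a median of 4.96, and 1 of them reached 10-fold.

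Of the 284 Pita peaks of X, 19 carried Zw5 (6.69%, 4.32 to 10.2, beside 6.01% over all sequences) and 13 carried ZIPIC (4.58%, beside 5.07%). Either was found on 29 (10.2%, beside 9.56%). Zw5 lay on 16 of 176 Pita peaks of 10-fold or more, or 9.09% (5.67 to 14.3), and on 3 of 108 lower ones, or 2.78% (0.949 to 7.85), with overlapping intervals. On the other arms the shares were 5.92% and 5.31%. The Pita peaks of X with Zw5 had a median fold of 30.2 (11 to 41.3), against 17.4 (13.3 to 20.7) for those without, with overlapping intervals. Of the 71 ZIPIC peaks, 12 carried Zw5 (16.9%, beside 17.8% over all sequences) and 13 carried Pita (18.3%, 11 to 28.8, beside 14.3%). Either was found on 22 (31.0%, beside 27.9%). Zw5 lay on 11 of the 44 ZIPIC peaks of 10-fold or more (25%, 14.6 to 39.4) and on 1 of the 27 lower ones (3.7%, 0.657 to 18.3). On the other arms the shares were 25.9% and 3.81%. The ZIPIC peaks of X with Zw5 had a higher fold, as their median was 27.6 (19.2 to 32.5) against 10.7 (8.75 to 14.1) without Zw5. The same held on the other arms, with 27.2 (24.1 to 30.6) against 13.9 (12.5 to 14.8). The ZIPIC peaks of X with Pita had a median of 9.77 (7.97 to 23.3), against 13.4 (10.4 to 15.8) without it, with overlapping intervals. On the other arms the order was the opposite, 18.4 (13.5 to 22.8) against 15.3 (14.1 to 16.7), also with overlapping intervals.

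All 3 proteins met at 3 regions of X. The first, X 11588518 to 11589365, held the strongest Pita and the strongest ZIPIC peak of the chromosome, 42.7-fold and 36.4-fold over input, with a Zw5 peak at 9.92-fold. Its pileups were 434, 74 and 111 fragments, and the 3 summits lay within 14 bp. The second, X 1130541 to 1131155, was 38.9-fold enriched in Pita, 28.1-fold in ZIPIC and 6.92-fold in Zw5, with summits within 26 bp. The last, X 659027 to 659664, had a Pita peak of 30.2-fold and weak ZIPIC and Zw5 peaks of 5.86-fold and 3.97-fold, with summits within 73 bp. Over preimmune the folds of this last region were 37.7, 7.29 and 5.07.

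The best-ranked regions of each pair are given with the fold of each partner, and these folds are not compared between proteins. Pita and Zw5 met at X 3999453 to 4000251, X 3028382 to 3029100 and X 6991905 to 6992620, with Pita between 40.5-fold and 42.5-fold and Zw5 between 4.52-fold and 6.61-fold. ZIPIC and Zw5 met at X 17042082 to 17043091, where both were high at 32.5-fold and 23.4-fold. At their next regions, X 7795673 to 7796012 and X 19162738 to 19163186, ZIPIC stood at 35.5-fold and 31.1-fold and Zw5 at 5.58-fold and 5.48-fold. Pita and ZIPIC met at X 19745879 to 19746474, with 32.3-fold and 15.8-fold, and at X 11474437 to 11475047, with 30.2-fold and 9.77-fold. Next and tied in rank were X 15030982 to 15031774, with 27.7-fold and 8.26-fold, and X 18279081 to 18279555, with 19.9-fold and 23.3-fold.

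**Figure D4:**
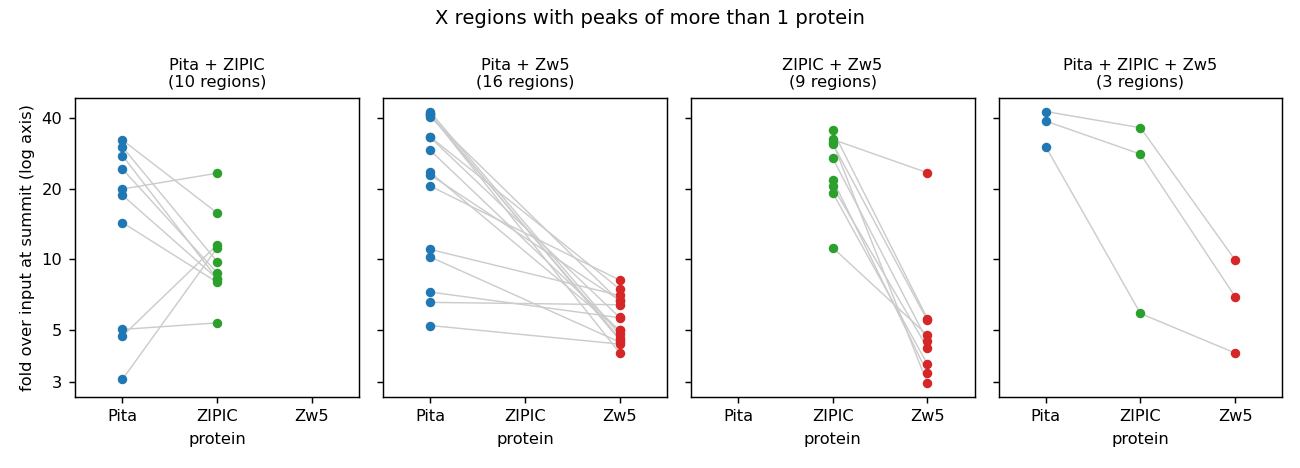
Fold over input (log axis) of each protein in the 38 regions of X that hold peaks of more than 1 protein, with 1 panel per class and lines joining the peaks of a region. Where Zw5 has a peak, it lies below 10-fold in all regions but 1, the region at X 17042082 with 23.4-fold. The Pita and ZIPIC peaks range up to 42.7-fold and 36.4-fold, and folds are not compared between proteins.

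Summits of overlapping X peaks lay close together. The median distance between Pita and Zw5 summits was 38 bp over 19 pairs (5 to 51), and 14 of these (73.7%, beside 60.7% over all sequences) were within 50 bp. Between ZIPIC and Zw5 it was 22.5 bp over 12 pairs (12 to 70), with 8 within 50 bp (66.7%, beside 78.4%), and at X 7795673 to 7796012 both summits fell on the same base. Between Pita and ZIPIC it was 52 bp over 13 pairs (16 to 126), with 6 within 50 bp (46.2%, beside 50.0%). The medians on the other arms were 42, 22.5 and 49 bp. No Pita peak of X had its nearest Zw5 summit between 1 kb and 5 kb away, since 19 had one within 1 kb and the same number within 5 kb.

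The control background at the peaks differed between X and the other arms for all 3 proteins. Among X peaks against both controls, the input background stood at the genome-wide floor, within 1%, at 58.1% of Pita peaks (52.3 to 63.7, beside 38.7% over all sequences) and 31.9% on the other arms. For ZIPIC it did so at 40.8% (30.2 to 52.5, beside 15.2%) and 6.74%, and for Zw5 at 39.5% (26.4 to 54.4, beside 12.1%) and 7.69%. In the preimmune lists the gap was wider. The floor held at 56.7% of X Pita peaks (51.0 to 62.3, beside 22.0%), 58.1% of ZIPIC peaks (46.7 to 68.7, beside 20.2%) and 68.9% of Zw5 peaks (54.3 to 80.5, beside 20.3%), against 11.8%, 12.9% and 11.9% on the other arms. No single other arm exceeded 40.9% in the input lists or 19.6% in the preimmune lists. The median preimmune background was 4.89 fragments at X Pita peaks and 7 elsewhere, 1.06 and 1.55 for ZIPIC, and 5.4 and 8 for Zw5. Since fold is the pileup over this background, a given pileup has a higher fold where the background is at the floor. The part of this in the fold comparisons, and in which peaks were called against both controls, was not tested.

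**Figure D5:**
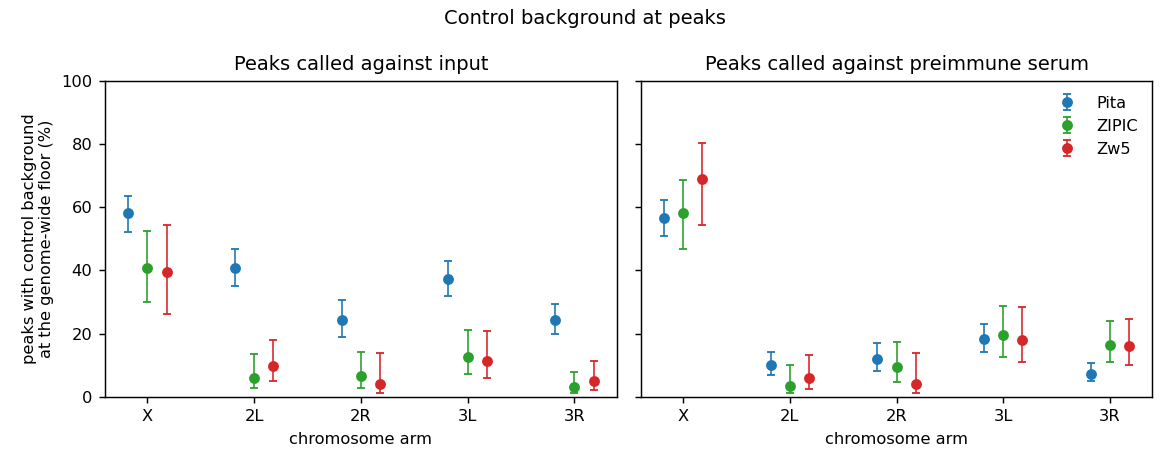
Percent of peaks whose control background stood at the genome-wide floor, for X and for each of the other large arms, in the input and preimmune calls, with 95% Wilson intervals. X is the highest arm for each protein and control, for example 68.9% for Zw5 against preimmune.

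The preimmune call kept more Pita peaks on X than elsewhere. Of the X input-list peaks, 284 of 336 (84.5%, 80.3 to 88.0) were also called against preimmune, against 1048 of 1404 (74.6%, 72.3 to 76.9) on the other arms, which singly ranged from 71.2% to 77.4%. Between 5-fold and 10-fold all 68 X peaks were called, against 215 of 236 (91.1%) elsewhere, and between 3-fold and 5-fold 40 of 82 (48.8%, 38.3 to 59.4) against 120 of 354 (33.9%, 29.2 to 39.0). At 10-fold or more every Pita peak was called in both sets. The part of the lower preimmune background on X in this and in the density of low Pita peaks was not tested. For ZIPIC the shares were 71 of 77 (92.2%, 84.0 to 96.4) and 87.9%, and for Zw5 43 of 80 (53.8%, 42.9 to 64.3) and 53.4% (49.3 to 57.5).

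Of the 37 Zw5 input-list peaks of X that were not called against preimmune, 23 (62.2%, 46.1 to 75.9) overlapped a Pita peak and 5 (13.5%, 5.91 to 28.0) a ZIPIC peak. On the other arms 57.1% and 23.8% did. Their folds over input ran from 1.93 to 4.96 with a median of 3.45. Of the 52 Pita peaks of X without a preimmune call, 2 (3.85%) overlapped a ZIPIC peak and 0 a Zw5 peak, which allows a share of up to 5.77%. On the other arms 14 of 356 (3.93%) and 12 of 356 (3.37%) did. Of the preimmune-list peaks of X, 3 of 289 for Pita, 1 of 74 for ZIPIC and 2 of 45 for Zw5 were not called against input. The others, 286, 73 and 43, were called against both. On the other arms 1057 of 1060, 376 of 389 and 301 of 303 were.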

How the data were processed

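Libraries were made from Oregon-R embryos as 1 precipitation each for Pita, ZIPIC and Zw5, with an input and a preimmune control. Per the submitters' processing notes, the tools were MACS2 2.1.0.20140616, Bowtie and cutadapt on dm3. Arguments, thresholds and duplicate handling were not given in the sources used here. In the lists deposited by the authors, the ratio is the fold enrichment at the summit. The authors' −log10 p and −log10 q were taken as those at the summit too. The deposited score equalled 10 times −log10 q with its decimals dropped at 100% of peaks. The lowest −log10 q was between 1.85 and 2.31. These values are the authors'. The −log10 q served only to filter peaks of 1 list, and −log10 p was used with fold to solve pileup and background.

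Pileup and background were solved from fold and −log10 p, taking fold as (pileup + 1)/(background + 1) and p as the Poisson upper tail. In the Pita and Zw5 preimmune lists the precipitate had to be scaled by 0.533 and 0.525, and a cut of the scaled pileup to a whole number before p was assumed. All pileups then came out within 0.05 of a whole number. In the Pita and Zw5 preimmune lists the solution nearest to a whole number was kept, so there this is not a check. Pileups were equal between the input and preimmune lists at 802 of 802 Pita, 195 of 195 ZIPIC and 199 of 199 Zw5 peaks with the same summit. Total reads per library are not known. Arm length is the highest coordinate in any list, 21.7 Mb for X and 94.6 Mb for the other arms together. Coordinates are on dm3, counted from 1. Percentages over all sequences count every peak of the list or set named.

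The members, lists and height limit were chosen with earlier results of these data known. Peaks are named by rule: the 5 highest per protein, the regions of all 3 proteins, the 3 best-ranked regions of each pair with ties, the lowest called and highest uncalled peak per protein, the 3 densest windows and the 3 longest gaps; the 3 further high Zw5 peaks were named after their values were seen. The calculations were tested on simulated data. Software was scipy 1.17.1, numpy 2.4.6, matplotlib 3.10.9 and pandas 2.3.3 under Python 3.11.15. No dm3 sequence or annotation was used here, so no sequence, gene or genomic feature is given for a site.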

Additional observations from a re-analysis of the deposited data

How the results depend on the processing

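Of 126 alternatives computed for 44 results, 102 left the X value within its interval, or a count within 1.5 times, and 24 moved it. With all input-list peaks, the X density was 15.5 per Mb for Pita and 3.69 per Mb for Zw5 (other arms 14.8 and 5.92), and the median X fold 12.0 for Pita and 3.95 for Zw5 (10.4 and 4.86). In that set 22.6% of X Pita peaks had a neighbour within 5 kb (20.6%), 15.8% overlapped another protein (19.2%), 52.4% reached 10-fold (50.5%), and Pita and Zw5 shared 42 X regions (237). Peaks below 10-fold, an alternative added after seeing the data, then occurred at 7.38 per Mb for Pita and 3.32 per Mb for Zw5 on X (7.35 and 4.11). The X intervals of the median Zw5 fold and of its overlap with another protein (70%, other arms 60.2%), and of the low Pita peaks, overlapped those of the other arms in that set, unlike in the set called against both controls. With limits of 2 kb and 20 kb, 3.87% and 45.4% of X Pita peaks had a neighbour (5.63% and 43.9%), and with 20 kb 32.4% of ZIPIC peaks (32.1%). At −log10 q of 10 or more, 95.1% of Pita, 100% of ZIPIC and 75% of Zw5 input-list peaks on X were called against preimmune (90.2%, 97.8% and 69.7%). A height limit of 5-fold, added after seeing the data, was reached by 85.9% of Pita, 100% of ZIPIC and 53.5% of Zw5 peaks on X (88.2%, 97.3% and 81.6%), and 20-fold by 46.5% of Pita and 22.5% of ZIPIC peaks (49.9% and 34.0%). In bins of 2 Mb the Zw5 variance over mean was 0.389 on X (2.01). The cause of these movements was not tested beyond the change of set or limit itself. The share of Zw5 peaks on X with a close neighbour was between 4.44% and 5.13% under every set and distance tried, against 12.0% to 45.5% on the other arms.

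No paired analysis was possible because each protein has 1 library. Counting limits are widest for Zw5, with 43 peaks on X and 8 of 10-fold or more. ZIPIC pileups on X had a median of 28, and the lowest was 10 (8 over the whole input list).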

Other observations

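Some of the closest pairs of X peaks of the same protein joined a high and a low peak, and others did not. They were not compared with close pairs on the other arms. The closest Pita summits, 870 bp apart, belonged to X 18408984 to 18409722 at 38.5-fold and X 18410078 to 18410406 at 4.71-fold. A further Pita peak of 5.21-fold at X 18411440 to 18411788 completed a run of 3. The next closest, 947 bp apart, had folds of 6.78 and 34.0, whereas the pair 1236 bp apart had 36.4 and 29.7. The closest ZIPIC summits, 412 bp apart, had 5.83-fold at X 7795333 to 7795484 and 35.5-fold at X 7795690 to 7796012. The next closest ZIPIC pair, 1280 bp apart, had folds of 8.75 and 9.1, both low. Pita peaks of X below 10-fold had a Pita neighbour within 5 kb in 18.5% of cases (12.3 to 26.9), and those of 10-fold or more in 10.2% (6.57 to 15.6), with overlapping intervals. These pairs were picked after their distances were seen.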
